A study of Rattus norvegicus with 9 samples.

Results

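The nuclear genes for the subunits of oxidative phosphorylation were followed in primary rat osteoblasts, the bone-forming cells, given thrombin with or without PD03. PD03 (PD0325901) is an inhibitor of the kinase MEK. The genes were chosen by symbol, as those beginning with Nduf, Sdh, Uqcr, Cyc1, Cox or Atp5 that name a subunit or the ATP synthase inhibitor, with a mean of at least 50 counts over 9 libraries. Of 19085 listed genes, 79 carried such a symbol and 71 reached the mean of 50. They are 70 symbols, because Cox6b1 stands on 2 gene identifiers. All 71 were among the 13256 genes tested. By respiratory complex, 30 belong to complex I, 4 to complex II, 8 to complex III, 13 to complex IV, counting Ndufa4 there, and 16 to complex V.

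Messenger RNA was sequenced from 3 groups of 3 libraries each. The cells were first-passage osteoblasts of newborn male Sprague-Dawley rats, and every group was kept for 7 days in osteogenic medium with β-glycerophosphate, ascorbic acid and dexamethasone. The control group had this medium alone, the thrombin group also had 20 U/mL thrombin, and the PD03 group had 20 U/mL thrombin with 0.1 µM PD03. The sample labels name the tissue as knee, whereas their growth protocol and the study's methods name calvaria. A protocol of the labels gives PD03 in mM and the study's design in µM. PD03 was sequenced only together with thrombin. The study describes the samples of a group as independent, but no source used here ties them to separate animals, so the p-values measure the spread between these samples.

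Total counts lay between 15447832 and 19841468 per library. Col1a1, the collagen chain that osteoblasts secrete in bulk, made up 4.18% to 5.05% of a control or thrombin library and 6.78% to 6.96% of a PD03 library. The labelled cell type was only partly visible in its markers. The markers did not move together. Runx2 lay at 41.0 to 45.5 CPM (counts scaled to a common library size) in control, 49.7 to 53.8 in thrombin and 29.1 to 34.3 in PD03 libraries, and Spp1 at 63.1 to 64.6, 184 to 186 and 52.9 to 53.6 CPM. Alpl lay at 1.03 to 2.59, 0.329 to 0.357 and 2.54 to 3.80 CPM, and Sp7 at 3.73 to 5.06, 5.43 to 7.11 and 4.08 to 5.99 CPM. Bglap did not exceed 0.297 CPM, and Ibsp and Dmp1 had 0 counts in all thrombin libraries. The summed level of 9 osteoblast markers, nearly all Col1a1, was 41346 to 49384 CPM in the control and thrombin libraries and 71253 to 73228 CPM in the PD03 libraries. The summed level of striated muscle markers was 11.2 to 14.7 CPM and that of adipocyte markers at most 1.77 CPM. Chondrocyte markers summed to 86.8 to 97.3 CPM in control, 63.3 to 68.3 CPM in thrombin and 70.3 to 77.1 CPM in PD03 libraries, and endothelial markers to 6.69 to 7.77, 6.31 to 8.51 and 11.1 to 12.6 CPM. That of macrophage and osteoclast markers was 133 to 144 CPM in control, 100 to 108 CPM in thrombin and 171 to 180 CPM in PD03 libraries, mostly Ctsk, with Ptprc at no more than 6 counts. In bulk RNA, fewer cells of a type and less RNA per cell cannot be told apart, and the part of these differences in the results was not tested.

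Oxidative phosphorylation takes place in the inner mitochondrial membrane. Complexes I and II feed electrons from NADH and succinate into coenzyme Q, complex III passes them to cytochrome c, and complex IV hands them to oxygen. Complexes I, III and IV pump protons, and complex V, the ATP synthase, uses the proton gradient to make ATP. Most subunits are encoded in the nucleus, a small set in mitochondrial DNA, and both must be assembled together. Osteoblasts draw on glycolysis as well as on respiration while they lay down matrix.

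The promoters of the subunit genes are shown first, because respiratory chain genes are well-known targets of the transcription factor NRF1 and of the ETS factor GABP. Promoters were taken from RefSeq for the GRCr8 build, as the 250 bases before each start, and matched by symbol. An entry was found for 62 of the 70 symbols, and Cyc1, Atp5pd, Cox4i2, Cox6a1, Cox6c, Ndufa8, Ndufb9 and Uqcrb had none. Of the 6 genes with the largest changes under PD03 against thrombin, 3 in each direction, the 5 with an entry are printed 5′ to 3′. Capitals mark matches on either strand to the NRF1 motif, which reads GCGCA, any base, GCGC, or to the ETS core CCGGAAG. Atp5mc3 and Uqcrc1 were lower under PD03, and Ndufs5, Atp5me and Ndufb2 were higher.
Atp5mc3: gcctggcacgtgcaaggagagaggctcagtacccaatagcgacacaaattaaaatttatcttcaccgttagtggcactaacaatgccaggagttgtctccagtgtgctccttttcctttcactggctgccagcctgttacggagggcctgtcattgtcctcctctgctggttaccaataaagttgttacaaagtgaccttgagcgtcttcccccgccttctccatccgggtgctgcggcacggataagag
Uqcrc1: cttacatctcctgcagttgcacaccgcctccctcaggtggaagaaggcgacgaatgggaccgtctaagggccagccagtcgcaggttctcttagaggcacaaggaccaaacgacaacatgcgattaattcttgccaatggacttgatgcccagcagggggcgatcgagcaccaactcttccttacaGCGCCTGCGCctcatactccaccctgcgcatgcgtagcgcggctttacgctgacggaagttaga
Ndufs5: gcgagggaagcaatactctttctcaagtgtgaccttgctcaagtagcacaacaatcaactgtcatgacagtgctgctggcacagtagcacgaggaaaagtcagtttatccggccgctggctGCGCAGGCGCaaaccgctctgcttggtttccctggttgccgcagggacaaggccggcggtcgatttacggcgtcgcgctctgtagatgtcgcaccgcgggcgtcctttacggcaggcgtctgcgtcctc
Atp5me: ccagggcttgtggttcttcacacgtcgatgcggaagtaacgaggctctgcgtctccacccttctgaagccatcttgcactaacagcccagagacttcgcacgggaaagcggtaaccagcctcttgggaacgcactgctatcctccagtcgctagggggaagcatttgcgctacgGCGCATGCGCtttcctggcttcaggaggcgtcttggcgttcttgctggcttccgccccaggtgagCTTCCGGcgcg
Ndufb2: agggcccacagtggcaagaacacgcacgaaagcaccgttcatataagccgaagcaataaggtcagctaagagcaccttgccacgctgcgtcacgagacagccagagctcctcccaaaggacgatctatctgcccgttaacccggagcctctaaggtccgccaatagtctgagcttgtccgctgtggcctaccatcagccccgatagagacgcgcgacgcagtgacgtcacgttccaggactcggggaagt
These stretches lie at chr3:79220665-79220914 on the minus strand, chr8:118467973-118468222 on the plus strand, chr5:141264403-141264652 on the minus strand, chr14:1464610-1464859 on the plus strand and chr4:69334057-69334306 on the plus strand, in that order. Uqcrc1 and Ndufs5, which moved in opposite directions, each held 1 NRF1 match. Atp5me held 1 NRF1 match and 1 ETS match in separate places, and Atp5mc3 and Ndufb2 held neither. A match describes letters and is not a binding site.

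Over all 33469 promoters of the same length, 3.75% held the NRF1 motif and 7.27% the ETS core. Among the 62 subunit promoters, 10 held the NRF1 motif (16.1%), 18 held the ETS core (29%), and 27 held either (43.5%). The median log2 fold change over the 10 genes with an NRF1 match was -0.073 for thrombin against control, 0.060 for PD03 against thrombin and -0.013 for PD03 against control. Over the 52 genes without it was -0.013, -0.003 and -0.016. Over the 18 genes with the ETS core it was -0.008, 0.007 and 0.053, and over the 44 without it -0.029, 0.020 and -0.023. These medians were not tested.

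Per length, the subunit genes spanned a wide range of levels in every group. On the deposited FPKM scale, the mean over 9 libraries had its median at 43.9 over complex I, 39.0 over complex II, 69.0 over complex III, 61.2 over complex IV and 109 over complex V. The lowest was the second identifier of Cox6b1 at 0.875 and the highest Atp5f1b, the catalytic beta subunit of ATP synthase, at 561. Cox6a1, a small complex IV subunit, followed at 399 FPKM and Uqcrq, a small complex III subunit, at 347 FPKM. The gene lengths that the authors' FPKM imply ran from 159 bases for Atp5f1e to 7960 bases for the second Cox6b1 identifier, and these lengths set part of the order.

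**Figure D1:**
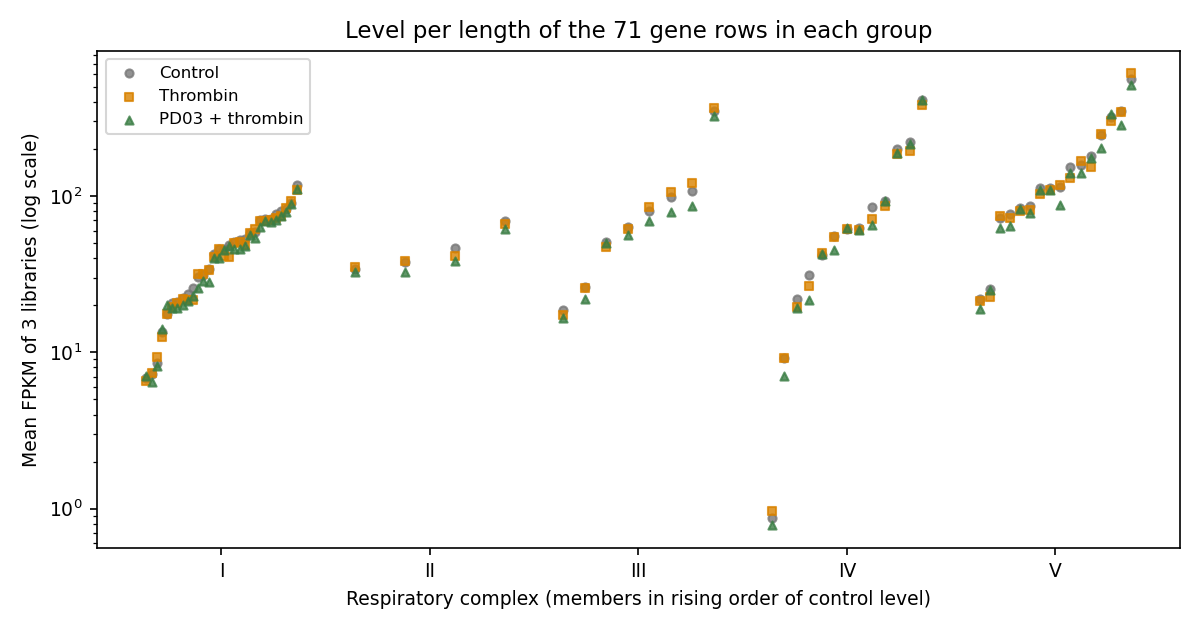
Mean FPKM of 3 libraries in each group (log scale) for the 71 genes, by respiratory complex and in rising order of the control level, with circles for control, squares for thrombin and triangles for PD03 with thrombin. The 3 symbols of a gene nearly coincide, while genes of 1 complex differ by more than 10-fold except in complex II.

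For the complex IV subunits whose tissue isoforms could be compared here, the general form was the main one. Cox4i1, the ubiquitous form of the largest nuclear subunit of complex IV, carried most of its pair, and Cox4i2, a form known from lung and low oxygen, made up 6.90% to 11.1% of the summed FPKM of both. That share was 8.41% to 9.57% in control, 8.27% to 11.1% in thrombin and 6.90% to 7.40% in PD03 libraries. Cox6a2 and Cox7a1, the heart and muscle forms, had at most 4 and 8 counts in any library. Their shares of the pairs with Cox6a1 and Cox7a2 reached at most 0.132% and 0.376%. Of the 3 genes for subunit c of ATP synthase, whose mature peptides are the same, Atp5mc3 held 22.8% to 26.1% of the FPKM of Atp5mc2 and Atp5mc3 together, and Atp5mc1 had no more than 4 counts on either of its identifiers. These Atp5mc1 counts are uncertain, because no source used here states how reads shared between gene copies were counted. Cox6b2, Cox7b2, Cox8a, Cox8b and Cox8c gave no values here.

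The mean of 50 counts left out 8 symbol matches. The nearest below it was Ndufa1, a complex I subunit, at a mean of 38.6 counts, with 39 to 52 counts in control, 33 to 40 in thrombin and 29 to 39 in PD03 libraries. The nearest above it was the second Cox6b1 identifier at 118, with 91 to 135, 129 to 135 and 98 to 130 counts. Ndufs6 had 12 to 22 counts per library, and Ndufa3 had a mean of 5.44. Many respiratory chain genes have processed copies elsewhere in mammalian genomes, and no source used here states how reads shared with such copies were counted. These low values, those of Atp5mc1 and the split of Cox6b1 are therefore uncertain.

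Across all 71 genes, no subunit gene passed the 0.58 log2 threshold in any of the 3 comparisons. This rule asked for an absolute log2 fold change above 0.58 together with an adjusted p under 0.05 in edgeR's quasi-likelihood test. By this rule 8.06% of all tested genes were called for thrombin against control, 15.9% for PD03 against thrombin and 8.97% for PD03 against control, against 0 of 71 subunit genes each time. At an unadjusted p under 0.05, with no fold threshold, 17, 33 and 22 of the 71 passed. Over all 13256 tested genes, 5017, 7319 and 6244 passed. The comparisons share libraries, the thrombin group standing in the first 2 and the control group in the first and the third.

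The intervals were narrow enough to bound these changes. The 95% interval of the log2 fold change lay wholly inside 0.58 on either side of 0 for 71 of 71 genes for thrombin against control, 71 for PD03 against thrombin and 70 for PD03 against control. Over all tested genes the same held for 71.5%, 61.7% and 68.0%. Over the 11030 with a mean of at least 50 counts, the limit for the subunit genes, it held for 85.2%, 73.4% and 81.1%. The median SE was 0.055, 0.0552 and 0.0555 for the subunit genes and 0.0738, 0.0739 and 0.0741 over those 11030. These shares are therefore not matched for precision. The exception among the 71 was Cox7b for PD03 against control, whose interval reached from -0.62 to -0.21. The median absolute log2 fold change of the subunit genes was 0.07, 0.12 and 0.08, against 0.14, 0.24 and 0.19 over all tested genes and 0.12, 0.21 and 0.17 over those 11030. Their signed medians were -0.02, 0.01 and -0.02, beside -0.01, 0.01 and -0.00 over all tested genes.

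The summed level of the 71 genes overlapped between all groups on the TMM scale, which sets libraries by the bulk of their genes. It was 6644, 6866 and 6911 CPM in control, 6699, 6907 and 6933 CPM in thrombin and 6861, 6622 and 6525 CPM in PD03 libraries. As a share of all counts it was 0.692% to 0.708% in control, 0.684% to 0.704% in thrombin and 0.619% to 0.653% in PD03 libraries, where the PD03 libraries lay below the others. Scaling by library totals took the median of all genes, in log2 fold change, from -0.004 to -0.12 for PD03 against control and from 0.011 to -0.088 for PD03 against thrombin. For PD03 against control the median of the 71 genes minus that of all genes was -0.014 under library totals and -0.015 under TMM. A change of scaling moves all genes by nearly the same amount, so this difference cannot decide between the scales. Unless another scaling is named, fold changes are given relative to the bulk of genes.

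**Figure D2:**
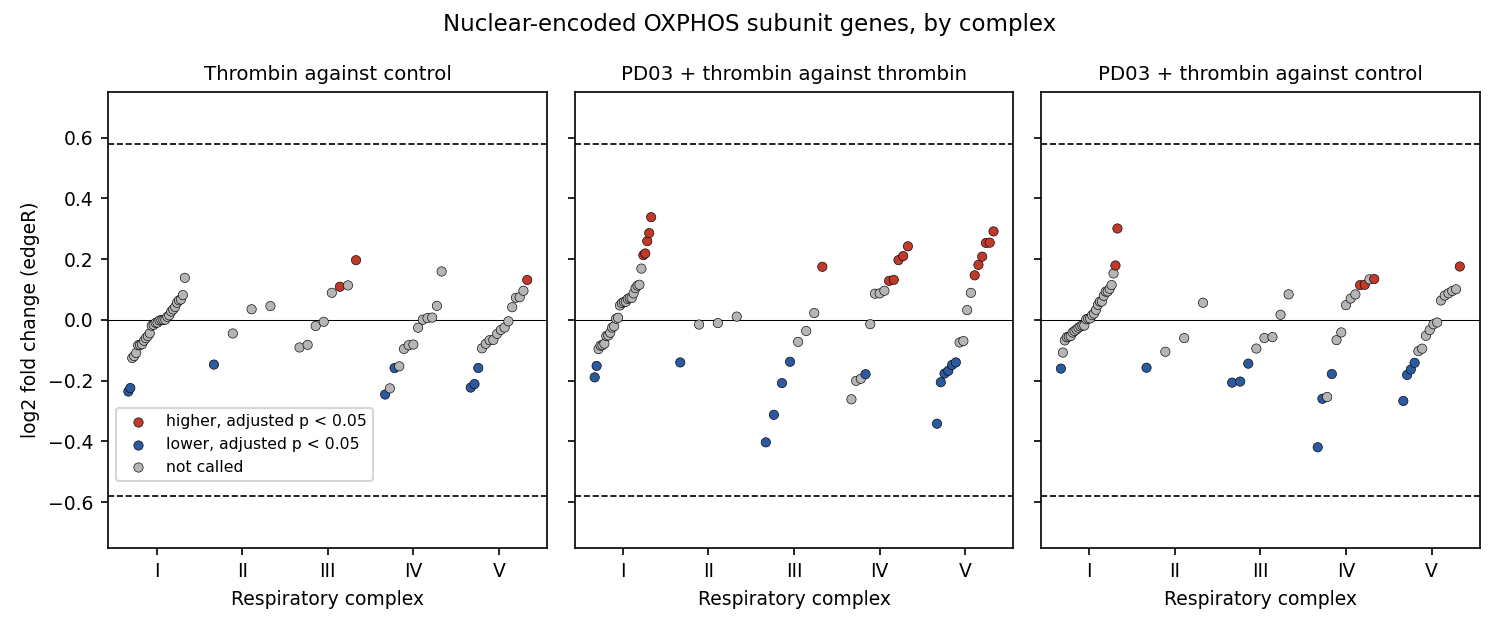
Log2 fold change of each of the 71 genes (vertical axis, edgeR) by respiratory complex, in 3 panels for the 3 comparisons, with red for higher and blue for lower at an adjusted p under 0.05 and grey for not called. Dashed lines mark 0.58 on either side of 0, and no point lies beyond them.

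Thrombin alone moved few subunit genes, by at most 0.25 on the log2 scale. With no fold threshold, 3 of 71 were higher, beside 14.1% of all tested genes, and 8 of 71 were lower, beside 14.6%. Of the 71, 20 did not overlap between the groups (28.2%), beside 40.3% of all tested genes. Without the first thrombin library 2 genes were lower, and without the second or the third control library 5 were. Under library totals the split was 2 higher and 11 lower, and under FPKM it was 2 and 12.

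The 3 genes that rose were in complexes III and V. Cyc1, the cytochrome c1 that passes electrons to cytochrome c, lay at 124, 119 and 131 CPM in control and 132, 145 and 151 CPM in thrombin libraries. All thrombin libraries were above all control libraries, and the log2 fold change was 0.20 (SE 0.05, adjusted p = 0.0012). Atp5f1b lay at 946, 981 and 995 CPM in control and 1043, 1079 and 1077 CPM in thrombin libraries, without overlap. Its log2 fold change was 0.13 (SE 0.03, adjusted p = 0.0019). Uqcrc1, a core protein of complex III, rose by 0.11 (SE 0.04, adjusted p = 0.046), and this call was lost under library totals (adjusted p = 0.097) and without the first or the third control library or the second or the third thrombin library (adjusted p = 0.11 to 0.17).

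The 8 genes that fell encode small or accessory subunits. Cox7a2, the general form of a small complex IV subunit, lay at 31.6, 32.9 and 33.6 CPM in control and 26.9, 27.6 and 28.2 CPM in thrombin libraries. The groups were apart, with a log2 fold change of -0.25 (SE 0.07, adjusted p = 0.0069). Ndufs5, an accessory complex I subunit, lay at 38.9, 38.1 and 37.8 CPM in control and 30.6, 31.8 and 35.1 CPM in thrombin libraries, again apart. Its log2 fold change was -0.24 (SE 0.07, adjusted p = 0.0061), and the adjusted p was 0.052 without the first thrombin library. Ndufb5, another accessory subunit of complex I, fell by 0.22 (SE 0.08, adjusted p = 0.028), a call lost with DESeq2 (adjusted p = 0.066) and without the third control library (adjusted p = 0.15), the first thrombin library (0.12) or the second thrombin library (0.10).

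In ATP synthase, 3 of the 4 small membrane subunits fell with thrombin, beside 14.6% of all tested genes. Atp5me, Atp5mf and Atp5mg encode subunits e, f and g of the membrane part, where ATP synthases pair into dimers, and Atp5mf and Atp5mg were named after their values were seen. Atp5mf lay at 99.6, 111 and 102 CPM in control and 87.9, 89.2 and 90.1 CPM in thrombin libraries, a log2 fold change of -0.22 (SE 0.05, adjusted p = 3.2e-04). The log2 fold change was -0.21 for Atp5me (SE 0.07, adjusted p = 0.022) and -0.16 for Atp5mg (SE 0.05, adjusted p = 0.019). The Atp5me call was lost with DESeq2 (adjusted p = 0.053) and without the second or the third control library or the first or the third thrombin library (adjusted p = 0.051 to 0.20). That of Atp5mg was lost without the first or the second control library (adjusted p = 0.077 and 0.078) or the first thrombin library (0.19). Without the second control library or the first thrombin library, 1 of the 4 was called. Sdhd, a membrane anchor of complex II, fell by 0.15 (SE 0.05, adjusted p = 0.038), which was lost with DESeq2 (adjusted p = 0.075) and without the second control library (adjusted p = 0.32) or any 1 thrombin library (adjusted p = 0.075 to 0.13). The eighth was Cox6c, a small complex IV subunit named after its values were seen, at -0.16 (adjusted p = 0.017), lost without the third control library (adjusted p = 0.079) or the first thrombin library (0.13).

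The redox core of complex I was not called in either direction by thrombin. Its 6 tested members, Ndufs1, Ndufs3, Ndufs7, Ndufs8, Ndufv1 and Ndufv2, carry the flavin or the iron-sulphur clusters or frame them. Their log2 fold changes lay between -0.13 for Ndufv2 and 0.14 for Ndufs7. Under FPKM, Ndufv2 was called lower at -0.14 (adjusted p = 0.05 with 1 added and 0.049 with 0.1 added). Sdha and Sdhb, the catalytic pair of complex II, had 0.04 (adjusted p = 0.61) and 0.05 (adjusted p = 0.59).

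PD03 with thrombin against thrombin gave the most calls, in both directions. Of the 71, 17 were higher, beside 25.3% of all tested genes, and 14 were lower, beside 24.5%. The groups did not overlap for 32 of 71 (45.1%), beside 55.5% of all tested genes. The split depended on the scaling, with 9 higher and 26 lower under library totals and under FPKM. The shares of all tested genes are those under TMM, and under library totals the median of all genes was itself -0.088. The lower genes included the catalytic and core subunits of complex III and the rotor ring of ATP synthase. They also included most of its F1 part, which is the catalytic head with its central stalk. The higher genes included small and accessory subunits of complexes I, IV and V.

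In complex III, 4 of 4 catalytic and core genes fell, beside 24.5% of all tested genes. These 4 also fell under library totals and FPKM. Cyc1 lay at 132, 145 and 151 CPM in thrombin and 111, 108 and 105 CPM in PD03 libraries, where every PD03 library was below every thrombin and control library. The log2 fold change was -0.40, or 0.756-fold (SE 0.05, adjusted p = 2.1e-09). Uqcrc1 lay at 158, 169 and 168 CPM in thrombin and 134, 135 and 129 CPM in PD03 libraries, with control at 150, 157 and 152 CPM. Its log2 fold change was -0.31 (SE 0.04, adjusted p = 4.2e-08). Uqcrfs1, the Rieske iron-sulphur protein, fell by 0.21 (SE 0.05, adjusted p = 4.0e-04) and Uqcrc2, the other core protein, by 0.14 (SE 0.05, adjusted p = 0.031). The Uqcrc2 call was lost without the third thrombin library (adjusted p = 0.15) or the first or the third PD03 library (0.12 and 0.062).

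The accessory genes of complex III went otherwise. Uqcr10 rose by 0.17 (SE 0.06, adjusted p = 0.019), a call lost under library totals (adjusted p = 0.33) and without the first thrombin library (0.20) or the second PD03 library (0.071). Uqcrb, Uqcrh and Uqcrq were not called, at 0.02, -0.04 and -0.07, and Uqcrh and Uqcrq were called lower under library totals. These 4 genes were named after their values were seen. Summed over the 8 genes, complex III lay at 725 to 750 CPM in control, 747 to 805 CPM in thrombin and 663 to 706 CPM in PD03 libraries. The PD03 libraries were below the others, and control and thrombin overlapped.

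**Figure D3:**
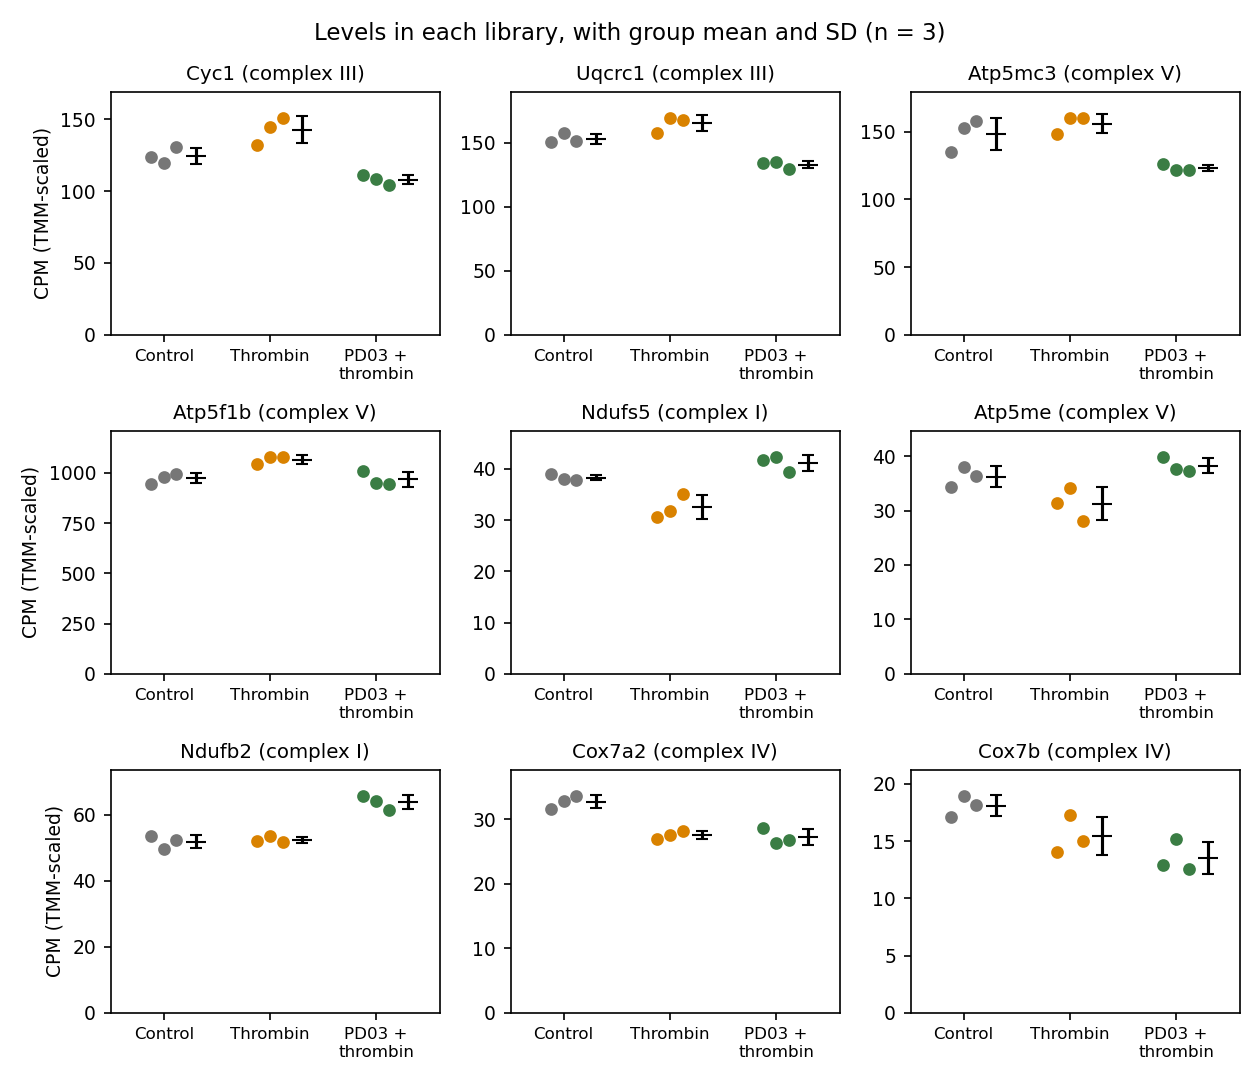
Level of 9 named genes in each library (vertical axis, TMM-scaled CPM from 0) in the control, thrombin and PD03 with thrombin groups, with bars for the group mean and SD of 3 libraries. Cyc1, Uqcrc1 and Atp5mc3 are lowest in the PD03 libraries, Ndufb2 is highest there, and Cox7a2 is low in both thrombin-treated groups.

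In ATP synthase, the rotor ring and F1 were mostly lower and the membrane periphery mostly higher. Both tested genes for subunit c fell, also under library totals and FPKM. Atp5mc3 lay at 148, 160 and 160 CPM in thrombin and 126, 122 and 122 CPM in PD03 libraries, without overlap, and at 135, 153 and 158 CPM in control libraries. The log2 fold change was -0.34 (SE 0.05, adjusted p = 9.0e-08). Atp5mc2 fell by 0.18 (SE 0.04, adjusted p = 2.6e-04).

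Of the 5 genes of F1, 3 fell and 1 rose, beside 24.5% and 25.3% of all tested genes. Atp5f1a, the alpha subunit, lay at 565, 586 and 576 CPM in thrombin and 498, 500 and 500 CPM in PD03 libraries. It fell by 0.21 (SE 0.03, adjusted p = 1.2e-06). Atp5f1b fell by 0.14 (SE 0.03, adjusted p = 4.6e-04), from the thrombin values above to 1011, 949 and 944 CPM, which overlapped the control libraries. Atp5f1d, the delta subunit, fell by 0.17 (SE 0.04, adjusted p = 0.0011), and Atp5f1c, the gamma shaft, was not called at -0.07 (adjusted p = 0.17) but was under library totals at -0.17 (adjusted p = 7.4e-04). These 2 were named after their values were seen. Atp5f1e, the epsilon subunit, rose from 47.2, 45.1 and 47.9 CPM to 57.1, 54.3 and 55.7 CPM, a log2 fold change of 0.25 (SE 0.06, adjusted p = 3.7e-04). Atp5if1, the inhibitor that blocks ATP hydrolysis by the enzyme, fell by 0.15 (SE 0.05, adjusted p = 0.016), which was lost without the second thrombin library (adjusted p = 0.076) or the third PD03 library (0.053).

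The subunits e, f and g were higher with PD03 than with thrombin alone. Atp5me lay at 31.3, 34.2 and 28.2 CPM in thrombin and 39.8, 37.6 and 37.3 CPM in PD03 libraries, without overlap, at a log2 fold change of 0.29 (SE 0.07, adjusted p = 6.7e-04). Atp5mf rose by 0.21 (SE 0.05, adjusted p = 3.3e-04) and Atp5mg by 0.25 (SE 0.05, adjusted p = 7.0e-05). Under library totals 2 of the 4 small membrane genes were called higher, Atp5mf having an adjusted p of 0.05, and under FPKM 3 were. In the peripheral stalk, which holds the head still, Atp5pd and Atp5pf rose by 0.18 (adjusted p = 0.0018) and 0.15 (adjusted p = 0.026), and the other 2 genes were not called. Both calls were lost under library totals (adjusted p = 0.15 and 0.48) and without the first thrombin library (0.067 for each). The Atp5pf call was also lost with DESeq2 (adjusted p = 0.055) and without the second or the third thrombin library (0.087 and 0.064) or the second or the third PD03 library (0.062 and 0.056). Both genes were named after their values were seen.

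**Figure D4:**
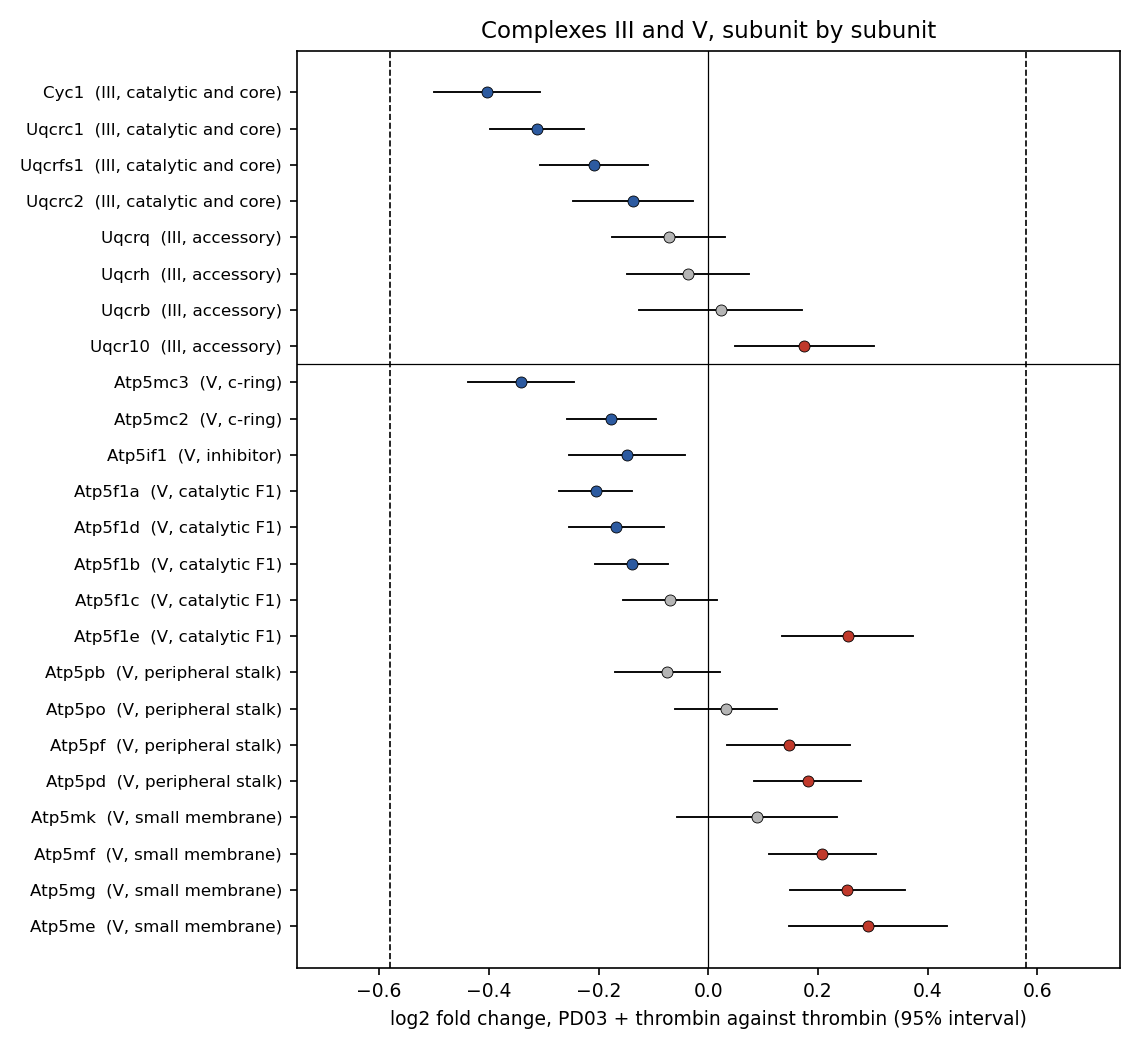
Log2 fold change for PD03 with thrombin against thrombin (horizontal axis, with its 95% interval) of the 8 genes of complex III and the 16 of complex V, grouped by their place in the complex, with red for higher, blue for lower and grey for not called. In complex III the 4 catalytic and core genes lie left of 0, and in complex V the points run from Atp5mc3 at -0.34 to Atp5me at 0.29.

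In complex IV, 5 of 13 genes were higher and 1 was lower, beside 25.3% and 24.5% of all tested genes. The split became 3 and 3 under library totals and 2 and 4 under FPKM, with the median turning from 0.09 to -0.01 in both. Cox4i1 lay at 188, 187 and 193 CPM in thrombin and 229, 215 and 212 CPM in PD03 libraries, with control between them at 198, 200 and 208 CPM. Its log2 fold change was 0.21 (SE 0.04, adjusted p = 2.4e-05). Cox6a1 rose by 0.20 (SE 0.04, adjusted p = 1.2e-04, or 0.092 under FPKM plus 1) and Cox6c by 0.24 (SE 0.05, adjusted p = 1.1e-04). The first identifier of Cox6b1 (ENSRNOG00000024309) and Cox7a2l were called higher at 0.13 each, while the second identifier of Cox6b1 (ENSRNOG00000066942) had -0.20 and was not called (adjusted p = 0.24). Both calls were lost under library totals and with DESeq2 (adjusted p = 0.055 and 0.072). In fits without the second or the third control library, the second thrombin library, or the first or the third PD03 library, 3 genes were higher. Cox5a, a subunit on the matrix side named after its values were seen, fell by 0.18 (SE 0.05, adjusted p = 0.0018). Cox4i2 had -0.26 and was not called (SE 0.14, adjusted p = 0.12), but was under library totals (adjusted p = 0.027) and without the second thrombin library (0.031).

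In complex I, 5 of 30 genes were higher and 2 lower, beside 25.3% and 24.5% of all tested genes. The split was 3 and 8 under library totals and 3 and 7 under FPKM. Ndufs5 lay at 30.6, 31.8 and 35.1 CPM in thrombin and 41.6, 42.3 and 39.4 CPM in PD03 libraries, without overlap. It had the largest rise among the 71 genes, 0.34 (SE 0.07, adjusted p = 3.9e-05). Ndufb2, an accessory subunit of the membrane arm, lay at 52.2, 53.5 and 51.6 CPM in thrombin and 65.7, 64.4 and 61.6 CPM in PD03 libraries, and at 53.6, 49.6 and 52.4 CPM in control. It rose by 0.29 (SE 0.06, adjusted p = 3.5e-05). Without the third PD03 library 8 genes of complex I were higher, and without the third thrombin or the second PD03 library none was lower, and without the second thrombin or the third PD03 library 1 was.

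Of the 6 redox core genes of complex I, 1 was higher and 1 lower, beside 25.3% and 24.5% of all tested genes. Under library totals none of the 6 was higher and 4 were lower. Ndufv2, which holds an iron-sulphur cluster at the NADH end, rose by 0.22 (SE 0.06, adjusted p = 0.0036), a call lost under library totals (adjusted p = 0.11). Ndufs8 fell by 0.15 (SE 0.06, adjusted p = 0.025), lost without the third thrombin library (adjusted p = 0.062) or the second PD03 library (0.094). Ndufv3, a small accessory subunit beside them, rose by 0.26 (SE 0.06, adjusted p = 1.6e-04). Ndufs1, Ndufs3, Ndufs7 and Ndufv1 were not called, between -0.08 and 0.07. Under library totals Ndufs1 (-0.15, adjusted p = 0.0075), Ndufs7 (-0.18, adjusted p = 0.014) and Ndufv1 (-0.18, adjusted p = 0.0022) were called lower, and Ndufv1 also without the first thrombin library (adjusted p = 0.047) or the first PD03 library (0.044). Sdha, the flavoprotein of complex II, fell by 0.14 (SE 0.04, adjusted p = 0.0076, or 0.052 without the second PD03 library), and Sdhb, Sdhc and Sdhd lay between -0.02 and 0.01.

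For PD03 with thrombin against control, 6 of 71 genes were higher, beside 19.7% of all tested genes, and 12 were lower, beside 20.2%. The groups did not overlap for 26 of 71 (36.6%), beside 47.8% of all tested genes. Under library totals and FPKM the split was 1 higher and 33 lower. The shares of all tested genes are those under TMM, and under library totals the median of all genes was itself -0.12. Without the first control library 2 were higher, and without the second control or the first PD03 library 3 were. Cox7b, a small subunit of complex IV, lay at 17.1, 18.9 and 18.2 CPM in control, 14.0, 17.3 and 15.0 CPM in thrombin and 12.9, 15.2 and 12.5 CPM in PD03 libraries. The PD03 libraries were below the control libraries and overlapped the thrombin libraries, and the log2 fold change was -0.42 (SE 0.10, adjusted p = 8.1e-04), the largest fall of this comparison.

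Against control 2 of 2 tested subunit c genes and 3 of 4 catalytic and core genes of complex III fell. Of these complex III genes, 4 fell under library totals and FPKM, and 2 without the first control or the third PD03 library. Of the 5 genes of F1, 1 fell and 1 rose, but under library totals and FPKM 4 fell and none rose. Leaving out 1 library at a time gave 1 to 3 falls and 0 or 1 rise in F1. Atp5mc3 fell by 0.27 (SE 0.05, adjusted p = 1.6e-05), Cox7a2 by 0.26 (SE 0.07, adjusted p = 0.0030), Cyc1 by 0.21 (SE 0.05, adjusted p = 5.8e-04) and Uqcrc1 by 0.20 (SE 0.04, adjusted p = 1.4e-04). Ndufb2 rose by 0.30 (SE 0.06, adjusted p = 2.5e-05), Ndufv3 by 0.18 (SE 0.06, adjusted p = 0.0095) and Atp5f1e by 0.18 (SE 0.06, adjusted p = 0.015). Of these 3 rises, that of Ndufb2 was still called under library totals. The Ndufv3 call was lost without the second PD03 library (adjusted p = 0.051), and the Atp5f1e call without the first or the third control library (0.072 and 0.091). Cox4i1, Cox6a1 and Cox7a2l were called higher at 0.11, 0.12 and 0.13, but under library totals none of these was, at -0.001, 0.000 and 0.018. None was called without the first or the second control library or the first PD03 library (adjusted p = 0.051 to 0.21). Cox6a1 was also lost without the second PD03 library (0.086), and Cox7a2l with DESeq2 (0.052). Cox7a2l was lost as well without the third control, the second thrombin or the third PD03 library (0.055 to 0.24).

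The 13 subunits encoded in mitochondrial DNA were measured beside the nuclear ones, and 12 were tested. With thrombin, 8 of 12 were lower and none higher, at a median log2 fold change of -0.13, and 5 were lower without the second thrombin library. Of all tested genes 14.6% were lower and 14.1% higher. Mt-nd4l, a membrane subunit of complex I, fell most, from 113, 138 and 125 CPM to 91.8, 97.6 and 95.3 CPM, by 0.40 (SE 0.06, adjusted p = 8.5e-07). For PD03 against thrombin, 4 were higher and 2 lower, beside 25.3% and 24.5% of all tested genes. Mt-co3 of complex IV lay at 1935, 1878 and 2069 CPM in thrombin and 2518, 2431 and 2425 CPM in PD03 libraries, a rise of 0.33 (SE 0.03, adjusted p = 1.7e-11). The median was 0.09 and turned to -0.01 under library totals, with 2 higher and 3 lower. These genes were named after their values were seen. Summed, the 13 genes made up 2.27% to 2.53% of all counts, against 0.619% to 0.708% for the 71 nuclear genes.

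Other mitochondrial lists are read against the same shares of all tested genes, which were 14.1% higher and 14.6% lower with thrombin, 25.3% and 24.5% between PD03 and thrombin, and 19.7% and 20.2% between PD03 and control. Of 72 tested genes for mitochondrial ribosome proteins, 1 was higher and 35 were lower for PD03 against thrombin, at a median of -0.19. Under library totals 0 were higher and 45 lower. The shares above are those under TMM, and under library totals the median of all genes was -0.088 in this comparison. Mrpl42 passed the fold threshold, from 18.4, 20.5 and 19.1 CPM in thrombin to 11.5, 13.9 and 12.8 CPM in PD03 libraries, with control at 17.0, 14.9 and 14.8 CPM. Its log2 fold change was -0.61 (SE 0.10, adjusted p = 1.6e-06), or -0.54 without the first PD03 library and -0.57 without the second thrombin library, short of the fold threshold. For thrombin against control 9 of the 72 were higher and none lower, but 4 or 5 were higher without the first or the second control or the second or the third thrombin library, and library totals gave 7 higher and 2 lower. For PD03 against control 22 were lower, 14 without the third PD03 library.

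Of 14 tested regulators of mitochondrial biogenesis, 9 were lower and none higher for PD03 against thrombin, at a median of -0.25, and 10 were lower under library totals. Tfam, which packs and transcribes mitochondrial DNA, lay at 24.6, 27.8 and 29.7 CPM in thrombin and 22.1, 20.2 and 17.5 CPM in PD03 libraries, a fall of 0.45 (SE 0.09, adjusted p = 2.1e-05). Gabpa, the DNA-binding chain of the ETS factor GABP, fell by 0.30 (adjusted p = 5.5e-04), and Nrf1 by 0.20 (adjusted p = 0.022), a call lost without the first PD03 library (adjusted p = 0.22) or the first or the third thrombin library (0.079 and 0.064). Tfam, Gabpa and Nrf1 were named after their values were seen. Esrra, a nuclear receptor of this group, passed the fold threshold at low counts, with 1.90, 2.69 and 1.11 CPM in thrombin and 1.06, 0.712 and 1.10 CPM in PD03 libraries, a log2 fold change of -0.98 (SE 0.34, adjusted p = 0.016). The lowest thrombin library lay just above the highest PD03 library, and the call was lost without the second thrombin library (adjusted p = 0.18) or the second PD03 library (0.067). Against control 8 were lower with PD03, 3 without the third control or the second PD03 library, 4 without the second control library and 5 without the third PD03 library. With thrombin alone 1 of the 14 was higher and none lower, and none was called without the first control or the first or the third thrombin library.

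Of 18 tested genes of the mobile carriers and coenzyme Q synthesis, 4 rose with thrombin and 7 fell with PD03 against thrombin. Coq8b, an accessory kinase-like protein of coenzyme Q synthesis, was the gene called with the fold threshold in both. It lay at 38.2, 41.9 and 46.3 CPM in control, 62.2, 65.1 and 64.5 CPM in thrombin and 39.6, 33.3 and 37.5 CPM in PD03 libraries. The thrombin libraries stood above all others, with log2 fold changes of 0.60 (SE 0.07, adjusted p = 5.5e-10) and -0.79 (SE 0.07, adjusted p = 1.8e-13). The first was 0.54 without the first control library, short of the fold threshold. Cycs, cytochrome c itself, had 0.33 (adjusted p = 0.0087, or 0.081 without the second control library) and -0.36 (adjusted p = 0.0021). The ATP export genes gave 2 of 5 higher with thrombin and 3 of 5 lower with PD03 against thrombin, and Slc25a5, the adenine nucleotide translocase, had 0.20 (adjusted p = 2.5e-05) and -0.44 (adjusted p = 6.7e-14). Under library totals, and without the second or the third control or the second or the third thrombin library, 1 of the 5 was higher with thrombin, and all 5 were lower with PD03 without the first thrombin library. Cycs and Slc25a5 were named after their values were seen.

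The tricarboxylic acid cycle genes were split, with 5 higher and 2 lower of 14 with thrombin and 3 higher and 4 lower with PD03 against thrombin. Under library totals the second split was 1 and 8. With thrombin 1 was lower without the second control or the third thrombin library. Of 15 assembly factors for complex I none was called with thrombin, and 1 was higher and 5 lower with PD03 against thrombin, beside the 25.3% and 24.5% of all tested genes. None was higher under library totals or without any 1 thrombin or PD03 library, while 3 were lower without the first or the second thrombin or the third PD03 library. Of 18 for complex IV 2 were higher and 2 lower there, none higher and 4 lower under library totals, and 0 to 2 higher and 1 or 2 lower without any 1 thrombin or PD03 library. None of the 3 complex II, 6 complex III and 5 ATP synthase assembly factors was called with thrombin, and 1, of complex III, was higher with PD03 against thrombin.

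**Figure D5:**
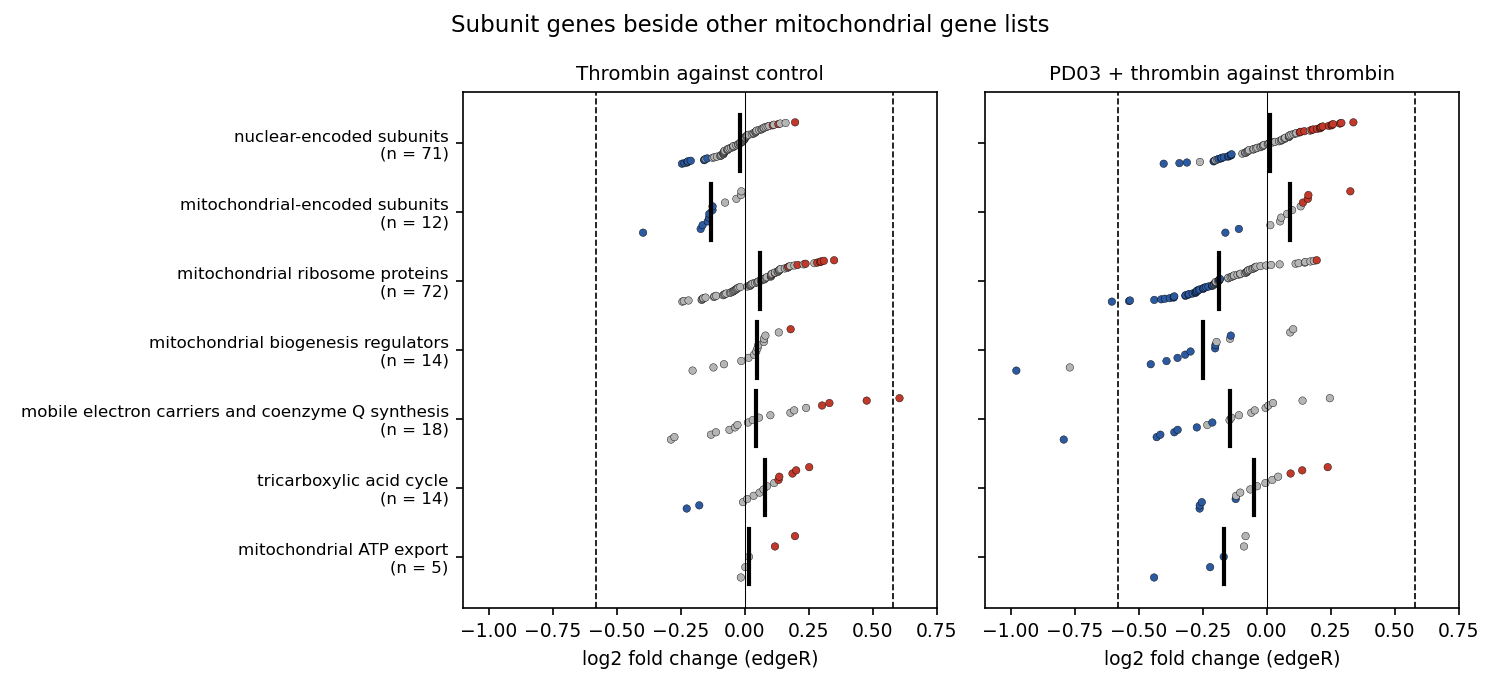
Log2 fold change (horizontal axis, edgeR) of the nuclear-encoded subunit genes and 6 other mitochondrial lists, for thrombin against control and for PD03 with thrombin against thrombin, with red for higher, blue for lower, grey for not called, a thick bar for each median and dashed lines at 0.58 on either side of 0. The median of the ribosome proteins lies at -0.19 and that of the biogenesis regulators at -0.25 under PD03, while that of the nuclear subunits lies at 0.01.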

How the data were processed

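Messenger RNA of 9 libraries was used, 3 per group. The authors deposited raw counts and FPKM values per gene and library. The FPKM values equal counts divided by gene length and library total, so they carry library-total scaling. The study's methods name fastp, HISAT2, featureCounts and the Rnor_6.0 build, whereas the submitters' processing notes name HISAT2, HTSeq 0.13.5 and mRatBN7.2. Files carry no coordinates. For annotation release, strandedness and multi-mapping reads, settings were not given in the sources used here.

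Counts were fitted in 1 model with edgeR 4.0.16 (R 4.3.3) after filterByExpr with a minimum count of 10 and TMM scaling. The quasi-likelihood test was adjusted by Benjamini-Hochberg over 13256 genes, and the biological coefficient of variation was 4.28%. Intervals are 95% intervals of the fit. The procedure was tested on simulated data. DESeq2 1.42.0, limma 3.58.1 (voom, and FPKM plus 1 or 0.1 on the log2 scale), other scalings and filters, a replicate block and leaving out each library were alternatives, and their use on complexes, lists and genes named outside the rule was chosen after seeing the data. Figures were drawn with matplotlib 3.10.9.

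Genes were named by rule: the 3 largest called rises and falls per comparison, tissue isoforms, catalytic subunits, genes nearest the count limit, and list genes past the fold threshold. The members and lists were chosen with earlier results of these data known. Replicates differed by more than counting noise, and all 9 libraries were kept.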

Additional observations from a re-analysis of the deposited data

How the results depend on the processing

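No subunit gene was called with the fold threshold of 0.58 under the alternatives run. At a threshold of 0.3, 4 were called for PD03 against thrombin and 2 for PD03 against control. Of all tested genes, 15.9% and 8.97% passed even the threshold of 0.58 in these comparisons. DESeq2 gave 5 instead of 8 lower genes for thrombin against control. Library totals, FPKM plus 1 and FPKM plus 0.1 each gave 9 higher and 26 lower genes for PD03 against thrombin, with medians of -0.088, -0.085 and -0.088, and 1 higher and 33 lower for PD03 against control, with medians of -0.135, -0.129 and -0.133. These 3 scale by library totals. The median of all genes was then -0.088, -0.065 and -0.085 for PD03 against thrombin and -0.12, -0.089 and -0.115 for PD03 against control. Cox4i1 for PD03 against control turned to -0.001 under library totals and -0.003 under both FPKM fits, and Cox6a1 to -0.002 under both FPKM fits.

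Leaving out 1 library at a time gave 2 to 4 higher and 2 to 9 lower genes for the thrombin comparison (median -0.056 to -0.006), 12 to 17 higher and 11 to 16 lower genes between PD03 and thrombin (median -0.004 to 0.044), and 2 to 7 higher and 10 to 14 lower genes between PD03 and control (median -0.038 to 0.010). The thrombin count fell to 2 lower without the first thrombin library, and the causes were not tested.

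The replicate numbers did not pair the libraries: the correlation of same-numbered libraries around their group means was -0.046 to 0.051, and 1 of 9 libraries correlated best with its own number. With the replicate block, the counts higher and lower were 3 and 8 with thrombin, 17 and 14 between PD03 and thrombin, and 7 and 13 between PD03 and control. Depth limits the genes with few counts, such as Esrra, whereas the smallest count of a subunit gene in any library was 91.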
